A study of Mus musculus with 4 samples.

Results

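The genes described here encode 10 collagen chains in 3 classes. The fibrillar class comprises Col1a1, Col1a2, Col3a1, Col5a1 and Col5a2, the network-forming type IV class Col4a1 and Col4a2, and the type VI class Col6a1, Col6a2 and Col6a3. They were picked by gene symbol out of 34147 distinct symbols, and each of the 10 symbols was found. Expression was read from 1 RNA library of each of 4 cell lines of mouse lung cancer, so that n = 2 lines a group. The metastatic lines 238N1 and 482N1 came from lymph nodes, and the non-metastatic lines 368T1 and 394T4 came from the lung. All 4 were of the 129S1/SvImJ strain with p53flox/flox alleles, and the tumours had been started with a lentiviral vector carrying Cre recombinase, which recombines floxed alleles in the cells it infects. The growth notes speak of cultured cancer cells, whereas the design text speaks of primary tumours and metastases; the samples are described here as lines. No label says that any line was a single clone, and a line measured once has no replicate of its own.

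Collagens are secreted proteins made of 3 chains wound into a triple helix. Type I and type III collagen form the bulk of fibrils in connective tissue, and type V collagen is built into fibrils and limits their diameter. Type IV collagen forms the sheet-like scaffold of basement membranes, such as those under the lung epithelium. Type VI collagen forms beaded filaments close to cells. In carcinomas, types I and III are usually made mainly by fibroblasts, while type IV is commonly made by the epithelial cells as well.

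Values are FPKM, fragments corrected for the length of the transcript and the size of the library, so that chains can be compared within a library. The read totals behind them are unknown. From the steps of the smallest FPKM values, 238N1 was the deepest library, and the other libraries had between 0.55 and 0.608 of its depth, if all were normalised alike. The most abundant row took 18.8% to 62.5% of the summed FPKM of a library, whereas the sums over protein-coding genes lay between 412799 and 491717. An exact 0 in such a table can be a failed estimate, and 691 of the 10301 genes that reached 5 FPKM in a line (6.71%) were listed at 0 in another. A 0 is therefore given below only as a listed value. Trp53, the gene of p53, was at 1.57 FPKM in 238N1 and listed at 0 in 482N1, against a listed 0 in 368T1 and 2.74 FPKM in 394T4. Of the 5 epithelial markers, all were above 0 in every line, with Krt18, a keratin of simple epithelia, at 1015 FPKM in 238N1 and 890.1 FPKM in 482N1 and at 1450 FPKM in 368T1 and 1231 FPKM in 394T4. Epcam was lower in both metastatic lines, at 4.13 FPKM in 238N1 and 4.76 FPKM in 482N1, against 54.0 FPKM in 368T1 and 34.3 FPKM in 394T4. The 7 blood markers summed to between 2.01 and 2.95 FPKM a line, most of it Cd68, at 1.78 to 2.13 FPKM, while Ptprc was listed at 0 in every line. The 6 endothelial markers summed to at most 0.909 FPKM, with Kdr up to 0.844 FPKM, and Pecam1, Tek and Emcn were listed at 0 in every line.

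In outline, type IV chains were abundant in every line, and the listed FPKM of type VI chains lay mainly in the metastatic lines. Type I and type III chains reached 1 FPKM in 482N1 alone. The summed FPKM of the 10 genes was 90.6 in 238N1 and 264.0 in 482N1, against 130.0 in 368T1 and 135.6 in 394T4. The metastatic lines thus held both the lowest and the highest sum. Type IV chains made up 72.4% of that sum in 238N1 and 44.2% in 482N1, against 95.5% in 368T1 and 93.8% in 394T4. Type VI chains made up 14.2% in 238N1 and 34.8% in 482N1, against 0.347% and 0.509% in 368T1 and 394T4. Col6a1 was listed at 0 in 368T1 and 394T4, so that their type VI shares and sums are too low if that 0 was a failed estimate.

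**Figure D1:**
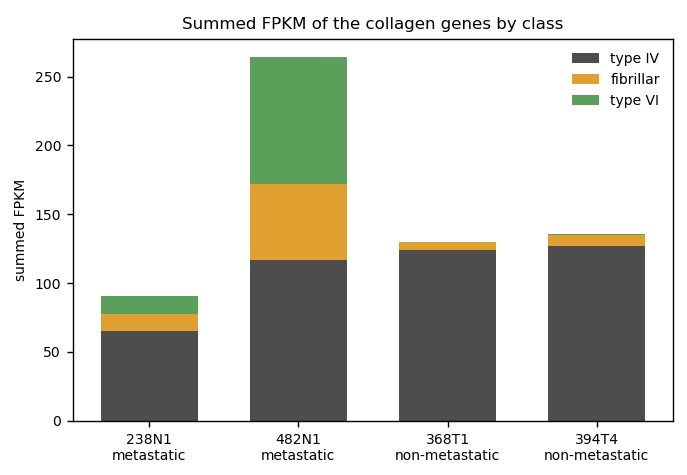
Stacked bars give the summed FPKM (vertical axis) of the type IV, fibrillar and type VI genes in each line (horizontal axis), 1 library a line. The sum was 264.0 FPKM in 482N1 and between 90.6 and 135.6 FPKM in the other 3 lines. Type VI is hardly visible in 368T1 and 394T4, where Col6a1 is listed at 0.

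The test of metastatic against non-metastatic lines used limma on log2(FPKM + 1) with a trend in the variance, two-sided, over the 12425 genes with a mean of at least 1 FPKM, with Benjamini-Hochberg adjustment over all of them. Of the 10 collagen genes, 8 entered the test; Col1a2 and Col6a3 had means under 1 FPKM. None of the 8 passed at an adjusted p under 0.05, where limma called 0.161% of all genes tested. At an unadjusted p under 0.05 there were 2 of the 8 tested members, Col5a2 and Col6a1, against 14.4% of all genes. The result for Col6a1 rests on a listed 0 in 368T1 and 394T4. Both metastatic lines lay above both non-metastatic lines for 4 of the 10 members, Col5a1, Col5a2, Col6a1 and Col6a2, and this held for 28.3% of all genes tested. Both metastatic lines lay below for 2 of the 10, Col4a1 and Col4a2, and this held for 26.9% of all genes. The members in these counts were all among the 8 tested, too few genes to tell any of the counts apart from the share beside it. Col1a1, Col3a1, Col6a1 and Col6a2 entered the test only through values in the metastatic lines, so that their direction is partly fixed by the filter.

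**Figure D2:**
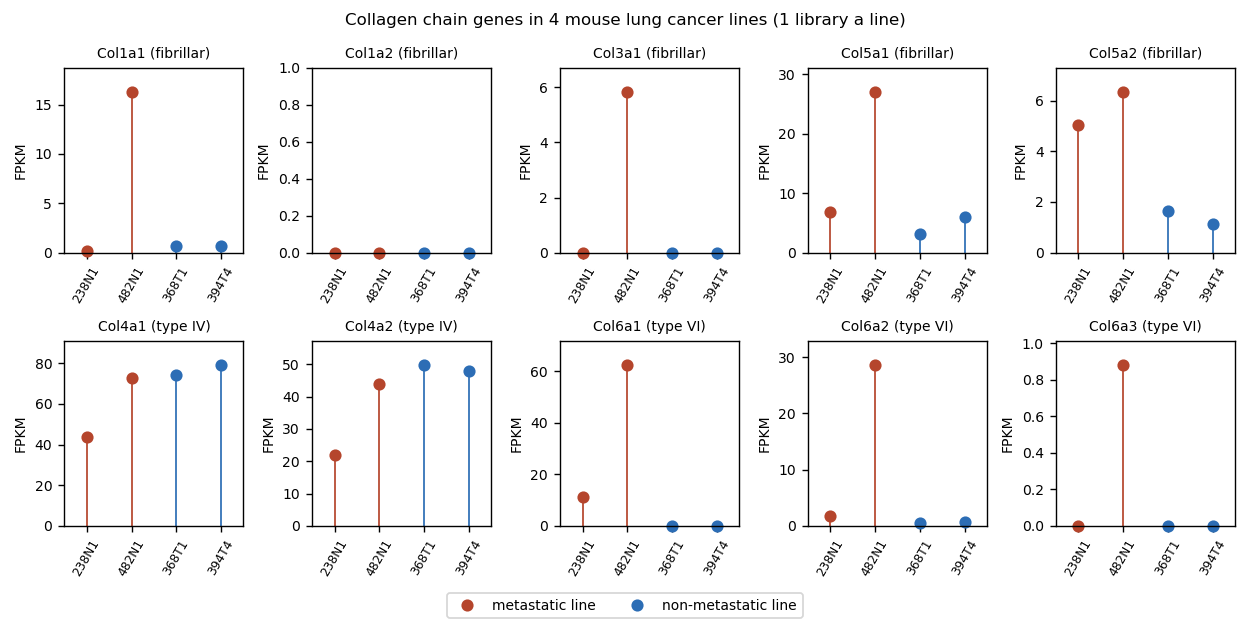
Each panel gives the FPKM (vertical axis, starting at 0 and scaled to the gene) of 1 collagen gene in the metastatic lines 238N1 and 482N1 and the non-metastatic lines 368T1 and 394T4, with 1 point a library. The highest point is 482N1 in 7 panels, while Col4a1 peaks at 79.1 FPKM in 394T4, Col4a2 at 49.8 FPKM in 368T1, and Col1a2 is listed at 0 throughout.

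Col4a1 and Col4a2 encode the chains of the commonest type IV collagen, the form found in nearly all basement membranes. The genes lie head to head on chromosome 8 of mm9, Col4a1 from 11198423 to 11312826 on the minus strand and Col4a2 from 11312805 to 11449287 on the plus strand. In GENCODE vM1 their first 22 bases coincide, chr8:11312805-11312826. That stretch is shown because both genes are annotated to start inside it, read in opposite directions; capitals mark a GC box (GGGCGG on either strand).
Col4a2, plus strand: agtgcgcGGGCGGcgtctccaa
Col4a1, minus strand: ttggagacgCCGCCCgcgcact

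Col4a1 stood at 43.8 FPKM in 238N1 and 72.7 FPKM in 482N1, against 74.3 FPKM in 368T1 and 79.1 FPKM in 394T4. The gene was higher than at least 92.0% of protein-coding genes in each line. 238N1 stood apart below the other 3 lines, which lay close together. The log2 fold change was -0.44 (SE 0.28, 95% interval -1.21 to 0.34, limma adjusted p = 0.460). Without 238N1 it was -0.08, and after scaling to the library sum it changed sign, to 0.20.

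Col4a2 followed the same order of groups, at 21.8 FPKM in 238N1 and 44.1 FPKM in 482N1, against 49.8 FPKM in 368T1 and 48.0 FPKM in 394T4. The log2 fold change was -0.64 (SE 0.37, 95% interval -1.64 to 0.36, limma adjusted p = 0.423), and without 238N1 it was -0.15. The position of both metastatic lines below the others was lost for both chains under quantile normalization and under scaling to the library sum or to the protein-coding sum. Basement membrane type IV molecules contain a pair of alpha 1 chains for each alpha 2 chain. The FPKM of Col4a1 was 2.00 times that of Col4a2 in 238N1 and 1.65 times in 482N1, against 1.49 times in 368T1 and 1.65 times in 394T4. The ratio was highest in 238N1, the line with the lowest level of both chains.

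Type VI collagen is built from an alpha 1, an alpha 2 and usually an alpha 3 chain, and the genes of the first and second lie on the minus strand of chromosome 10 of mm9, 85161 bases apart. Col6a1 spans 76171537 to 76188913 and Col6a2 spans 76058507 to 76086375. Their upstream sequences are shown because both genes were higher in both metastatic lines. The stretches come from the RefSeq promoter table (GRCm38.p6), which gives 250 bases before and 50 after a start, and were placed by an exact and single match on mm9; annotated exons were left out. Capitals mark a GC box.
Col6a1, minus strand, chr10:76188914-76189039: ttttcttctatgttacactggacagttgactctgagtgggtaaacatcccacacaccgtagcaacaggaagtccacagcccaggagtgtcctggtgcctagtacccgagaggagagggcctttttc
Col6a2, minus strand, chr10:76086376-76086625: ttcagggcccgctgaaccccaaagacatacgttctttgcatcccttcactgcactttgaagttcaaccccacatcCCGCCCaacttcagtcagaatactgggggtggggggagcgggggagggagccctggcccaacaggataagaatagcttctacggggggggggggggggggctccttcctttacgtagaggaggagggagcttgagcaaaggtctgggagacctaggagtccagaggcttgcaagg

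Col6a1 stood at 11.1 FPKM in 238N1 and 62.4 FPKM in 482N1 and was listed at 0 in 368T1 and 394T4. No fold is given against lines listed at 0. Its limma adjusted p was 0.328, a value that rests on the listed 0 in both non-metastatic lines, which may be a failed estimate. After scaling to the library sum the adjusted p was 7.57e-10, a setting under which limma called 288 genes higher and 97 genes lower, against 14 and 6 with the values as deposited.

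Col6a2 stood at 1.73 FPKM in 238N1 and 28.6 FPKM in 482N1, against 0.452 FPKM in 368T1 and 0.691 FPKM in 394T4. Both metastatic lines were higher, but 482N1 was 16.5 times as high as 238N1. The log2 fold change was 2.52 (SE 1.21, limma adjusted p = 0.382); it was 4.24 without 238N1 and 0.80 without 482N1. It passed only after scaling to the library sum (limma adjusted p = 0.00367).

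Col6a3 (chromosome 1, 92663435 to 92740529, minus strand) encodes the longest of these chains. It was at 0.881 FPKM in 482N1 and was listed at 0 in 238N1, 368T1 and 394T4, and it was not tested. In 482N1 the FPKM of Col6a2 was 32.4 times that of Col6a3, while that of Col6a1 was 2.18 times that of Col6a2. In 238N1 the FPKM of Col6a1 was 6.41 times that of Col6a2. The type VI chains were thus far from equal per transcript length in the lines where they were present. The chains Col6a4 and Col6a6 were listed at 0 in all 4 lines, and Col6a5, at 0.0622 FPKM in 482N1 and 0.0223 FPKM in 368T1, was listed at 0 in 238N1 and 394T4.

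Col1a1 (chromosome 11, 94797538 to 94814356, plus strand) encodes the alpha 1 chain of type I collagen. It stood at 0.217 FPKM in 238N1 and 16.3 FPKM in 482N1, against 0.632 FPKM in 368T1 and 0.712 FPKM in 394T4. Only 482N1 was above 1 FPKM, at 75.0 times the level of 238N1, and the groups overlapped because 238N1 was the lowest of the 4 lines. The log2 fold change was 1.46 (SE 1.35, limma adjusted p = 0.568), and without 482N1 it was -0.46.

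Col1a2 (chromosome 6, 4454814 to 4491543, plus strand), the partner chain of type I collagen, was listed at 0 in all 4 lines, also in 482N1, where Col1a1 stood at 16.3 FPKM. The same held for 7196 of the 22155 protein-coding genes (32.5%). Col3a1 (chromosome 1, 45368383 to 45406551, plus strand) encodes the only chain of type III collagen. It stood at 5.82 FPKM in 482N1 and was listed at 0 in 238N1, 368T1 and 394T4. Its limma adjusted p was 0.487, and without 482N1 all libraries left were at 0. Stretches 5′ of the RefSeq starts are shown because both genes were listed at 0 in at least 3 of the 4 lines. That of Col1a2 lies inside the GENCODE vM1 gene span, in a part without annotated exons, while that of Col3a1 ends just before its gene. Capitals mark a TATA box (TATAAA) or GC box.
Col1a2, plus strand, chr6:4455370-4455492: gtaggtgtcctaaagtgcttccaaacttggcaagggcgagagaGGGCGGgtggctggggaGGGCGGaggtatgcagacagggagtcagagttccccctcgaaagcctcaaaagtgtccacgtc
Col3a1, plus strand, chr1:45368133-45368382: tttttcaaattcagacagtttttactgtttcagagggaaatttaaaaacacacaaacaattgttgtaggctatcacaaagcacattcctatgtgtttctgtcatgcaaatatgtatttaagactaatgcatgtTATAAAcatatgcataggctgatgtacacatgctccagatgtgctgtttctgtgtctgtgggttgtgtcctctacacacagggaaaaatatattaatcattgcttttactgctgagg

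Both strands of the whole 300-base windows were searched for the letters of the TATA box, the CCAAT box and the GC box as spelled above. The TATA box letters were held by 13.6% of the 32851 windows in the RefSeq table, the CCAAT box letters by 37.4% and the GC box letters by 35.7%. The table had entries for 8 members and none for Col1a1 and Col5a2. Among the 8 members, Col3a1 alone held the TATA box letters, 117 bases before the RefSeq start. A CCAAT box was found for Col1a2, Col4a1 and Col4a2, the windows of the last pair overlapping, and a GC box for Col1a2, Col4a1, Col4a2, Col5a1 and Col6a2. The only GC box of Col4a1 lay after its start, inside the 22 bases shared with Col4a2. Col6a1 and Col6a3 held none of these motifs in their windows. These are matches of letters, and whether any acts in a promoter was not tested.

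Type V chains were the only fibrillar chains that reached 1 FPKM in every line. Col5a1 (chromosome 2, 27741945 to 27895034, plus strand), the alpha 1 chain, stood at 6.88 FPKM in 238N1 and 27.0 FPKM in 482N1, against 3.13 FPKM in 368T1 and 5.93 FPKM in 394T4. 238N1 lay just above 394T4 and 482N1 well above both. The log2 fold change was 1.47 (SE 0.70, 95% interval -0.44 to 3.39, limma adjusted p = 0.381).

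Col5a2 (chromosome 1, 45431166 to 45560127, minus strand), the alpha 2 chain, stood at 5.04 FPKM in 238N1 and 6.34 FPKM in 482N1, against 1.66 FPKM in 368T1 and 1.12 FPKM in 394T4. It was the one member whose metastatic lines lay close together and clear of the non-metastatic lines without a value listed at 0. The means were 5.69 ± 0.917 FPKM in metastatic and 1.39 ± 0.385 FPKM in non-metastatic lines (SD, n = 2 each; log2 fold change 1.49, SE 0.29). The limma adjusted p was 0.328, and no alternative brought it past the threshold. Col5a2 lies 24614 bases from Col3a1, the genes pointing towards each other, and their values were unlike: in 238N1 Col5a2 was at 5.04 FPKM and Col3a1 was listed at 0.

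The major type V molecule holds more alpha 1 than alpha 2 chains. The FPKM of Col5a1 was 1.37 times that of Col5a2 in 238N1 and 4.26 times in 482N1, against 1.88 times in 368T1 and 5.30 times in 394T4. This ratio varied within each group and overlapped between groups. Col1a1 was below Col5a1 in every line, at 0.0315 of its FPKM in 238N1 and 0.603 in 482N1, against 0.201 in 368T1 and 0.120 in 394T4.

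**Figure D3:**
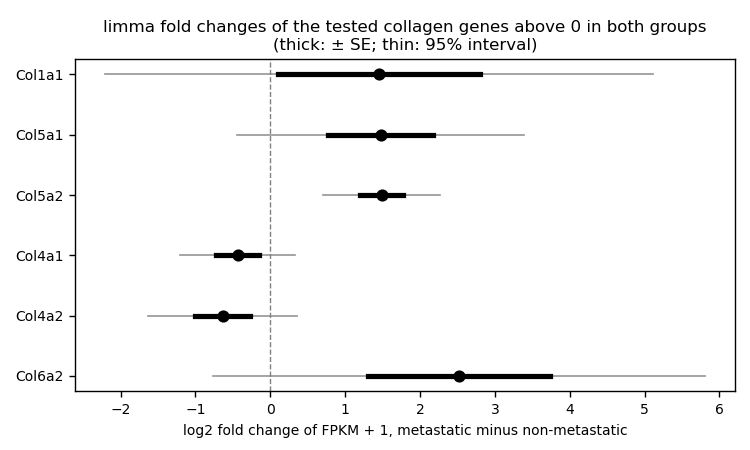
Points give limma's log2 fold change of FPKM + 1 (horizontal axis, metastatic minus non-metastatic) for the tested collagen genes, with the SE as a thick line and the 95% interval as a thin line; Col3a1 and Col6a1, listed at 0 in both non-metastatic lines, are left out. The interval of Col5a2 lies above 0 and the type IV genes lie left of 0 with intervals that include it; none passed after adjustment.

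The metastatic lines differed from each other in most of these genes more than the non-metastatic lines did, though not in Col5a2 or Col1a2. On FPKM + 1, 482N1 was over 4-fold above 238N1 in 4 of the 10 members, Col1a1, Col3a1, Col6a1 and Col6a2, and over 4-fold below in none. Col3a1 was listed at 0 in 238N1, so that its place in this count depends on the 1 that is added. All genes tested passed that fold in 2.17% of cases upwards and 2.26% downwards. Col1a1, Col3a1 and Col6a2 reached a mean of 1 FPKM only through their values in 482N1, so that their direction here is partly fixed by the filter. Between 368T1 and 394T4 no member passed 4-fold in either direction, against 3.27% of all genes. The ratio of FPKM + 1 lay between 0.597 for Col5a1 and 1.26 for Col5a2. A gene under 1 FPKM in both lines cannot pass 4-fold once 1 is added. This held for every member but Col4a1, Col4a2, Col5a1 and Col5a2, so the count was largely fixed by low or listed 0 values. 482N1 was the highest line for 7 of the 10 members, whereas 37.3% of all genes tested were highest there. The 7 include Col6a3, which was not tested, and Col1a1, Col3a1 and Col6a2, which passed the filter only through 482N1. These are comparisons of single libraries, without a replicate check.

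Some fibroblast and pericyte markers were highest in 482N1, as were Col1a1, Col3a1 and the type VI genes. The summed level of all 11 markers was 0.497 FPKM in 238N1 and 20.6 FPKM in 482N1, against 1.93 FPKM in 368T1 and 3.62 FPKM in 394T4. In 482N1, 4 of the 11 reached 1 FPKM. The sum did not follow Col6a1 in the other lines, being lowest in 238N1, where Col6a1 stood at 11.1 FPKM. Acta2, a smooth muscle actin that many cultured cells also make, gave 16.3 FPKM of that sum in 482N1. Postn was at 1.56 FPKM there, Pdgfrb at 1.22 FPKM and Thy1 at 1.14 FPKM, and each was listed at 0 in the other 3 lines. Pdgfra was at 0.222 FPKM in 482N1 and 0.0742 FPKM in 368T1 and listed at 0 in 238N1 and 394T4. Tcf21 was at 0.0677 FPKM in 482N1 and listed at 0 in the others. Rgs5 was highest in 394T4, at 0.0382 FPKM, and Des in 368T1, at 0.0474 FPKM. Dcn, Lum and Fap were listed at 0 in all 4 lines. In a bulk library, a few cells with much of an RNA cannot be told apart from many cells with little. The keratin Krt7 was at 349.6 FPKM in 238N1 and 6.90 FPKM in 482N1, against 456.0 FPKM in 368T1 and 480.0 FPKM in 394T4. Of the other epithelial markers, Cdh1 was at 173.8 FPKM in 238N1 and 104.4 FPKM in 482N1, against 108.7 FPKM in 368T1 and 155.1 FPKM in 394T4. Krt8 was at 634.4 FPKM in 238N1 and 504.7 FPKM in 482N1, against 904.5 FPKM in 368T1 and 853.8 FPKM in 394T4. The part of these markers in the collagen values was not tested.

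Genes whose profile over the 4 lines lay nearest to that of 3 of the collagens were found by Euclidean distance between centred log2(FPKM + 1) values. For Col1a1, among 7389 genes, these were Inhba, a subunit of activin (distance 0.449), Uts2d (0.551) and Cyp1b1, a cytochrome P450 (0.592). Inhba stood at 2.95 FPKM in 238N1 and 37.4 FPKM in 482N1, against 3.81 FPKM in 368T1 and 4.58 FPKM in 394T4. For Col4a1, among 7388 genes, they were Map3k3, a kinase (0.0573), Arhgap27 (0.116) and Ppap2a (0.123). For Col6a1, among 7751 genes, they were Pfkm (1.20), Tmem87a (1.36) and Fblim1 (1.43), each listed at 0 in 368T1 and 394T4. Genes listed at 0 in a line were kept in this search but left out for Col1a1 and Col4a1. What these genes share with Col6a1 is thus mainly a listed 0 that may be a failed estimate. They also lay further from it than the genes named for Col1a1 and Col4a1 lay from theirs. With 4 lines, a near profile is a description of these libraries and nothing more.

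Of the 33 other collagen genes in the table, 13 were listed at 0 in all 4 lines and 7 were tested; none passed limma's test in either direction and none had an unadjusted p under 0.05. Their median log2 fold change was -0.16. Col18a1, a basement membrane collagen that carries endostatin, was by far the most abundant, at 48.5 FPKM in 238N1 and 55.9 FPKM in 482N1, against 58.2 FPKM in 368T1 and 84.2 FPKM in 394T4 (adjusted p = 0.418 by limma). Both metastatic lines lay below, as they did for Col4a1 and Col4a2. Col4a5, another type IV chain, stood at 1.77 FPKM in 238N1 and 5.27 FPKM in 482N1, against 1.22 FPKM in 368T1 and 2.68 FPKM in 394T4. Col8a1, a short-chain network collagen, stood at 2.46 FPKM in 238N1 and 5.77 FPKM in 482N1, against 7.09 FPKM in 368T1 and 5.31 FPKM in 394T4.

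Several further chains were highest in 482N1, which was the highest line for 5 of the 7 tested and for 37.3% of all genes tested. The 5 include Col12a1 and Col16a1, which reached a mean of 1 FPKM only through 482N1, so that this count is partly fixed by the filter. Col12a1, which lies on the surface of fibrils, stood at 0.389 FPKM in 238N1 and 6.31 FPKM in 482N1, against 0.265 FPKM in 368T1 and 0.379 FPKM in 394T4. Col7a1, the chain of anchoring fibrils under epithelia, was listed at 0 in 238N1 and stood at 7.07 FPKM in 482N1, against 1.88 FPKM in 368T1 and 2.52 FPKM in 394T4. Untested for low means were the fibrillar chains Col5a3, at 2.05 FPKM in 482N1 and at most 0.163 FPKM in the others, and Col11a1, at 1.77 FPKM in 482N1 and listed at 0 in the others.

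**Figure D4:**
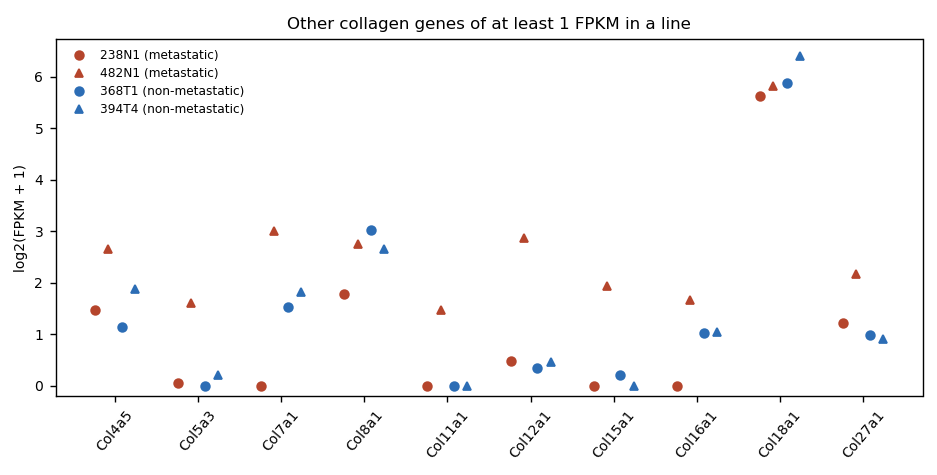
Points give log2(FPKM + 1) (vertical axis) of the 10 other collagen genes that reached 1 FPKM in a line, for each of the 4 lines (1 library each; circles for 238N1 and 368T1, triangles for 482N1 and 394T4). Col18a1 stands highest in every line, and 482N1 is the highest line for Col4a5, Col5a3, Col7a1, Col11a1, Col12a1, Col15a1, Col16a1 and Col27a1.

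Chains are hydroxylated, glycosylated and folded in the endoplasmic reticulum before secretion, and the genes for these steps were abundant in all 4 lines. Of 19 hydroxylase and chaperone genes, 18 were tested, and none passed in either direction; limma's unadjusted p was under 0.05 for 1. Among the 18, both metastatic lines lay above in 6 and below in 4, against 28.3% and 26.9% of all genes tested, and the median log2 fold change was 0.13, against 0.05 over all genes tested. Serpinh1, the collagen chaperone HSP47, stood at 141.6 FPKM in 238N1 and 157.4 FPKM in 482N1, against 150.6 FPKM in 368T1 and 157.1 FPKM in 394T4. Its level was thus nearly the same in a line with little fibrillar collagen RNA and in the line with most. Fkbp14, a prolyl isomerase, stood at 7.30 FPKM in 238N1 and 9.60 FPKM in 482N1, against 2.73 FPKM in 368T1 and a listed 0 in 394T4 (adjusted p = 0.335 by limma). P4ha3, a prolyl 4-hydroxylase subunit, stood at 1.54 FPKM in 238N1 and 11.3 FPKM in 482N1, against 1.51 FPKM in 368T1 and 1.56 FPKM in 394T4. Like Col1a1, it stood apart in 482N1. Plod2, a lysyl hydroxylase, stood at 5.85 FPKM in 238N1 and 15.1 FPKM in 482N1, against 4.59 FPKM in 368T1 and 4.99 FPKM in 394T4.

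Of 14 genes for trimming of propeptides and for crosslinking, 8 were tested and none passed in either direction; none had an unadjusted limma p under 0.05. Among the 8, both metastatic lines lay above in 3 and below in 1, against 28.3% and 26.9% of all genes tested. Adamts14 and Loxl1, too low to test, also lay above, Adamts14 only just, at 0.551 FPKM in 482N1 against 0.538 FPKM in 394T4. The median log2 fold change was 0.36. Lox, the lysyl oxidase that crosslinks fibrils, stood at 0.00957 FPKM in 238N1 and 5.74 FPKM in 482N1, against 0.0158 FPKM in 368T1 and 0.0659 FPKM in 394T4. As with Col1a1, 482N1 alone was above 1 FPKM. Loxl4, a relative of Lox, ran the other way, at 4.52 FPKM in 238N1 and 6.61 FPKM in 482N1, against 13.1 FPKM in 368T1 and 8.47 FPKM in 394T4 (adjusted p = 0.349 by limma). Bmp1, a protease that removes the C-terminal propeptide of fibrillar chains, stood at 45.1 FPKM in 238N1 and 102.0 FPKM in 482N1, against 47.3 FPKM in 368T1 and 67.1 FPKM in 394T4. Pxdn, the peroxidase that crosslinks type IV collagen, stood at 18.8 FPKM in 238N1 and 34.7 FPKM in 482N1, against 21.5 FPKM in 368T1 and 26.4 FPKM in 394T4. Like Col4a1, it was lowest in 238N1.

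Of 13 collagen receptor genes 6 were tested, and none passed in either direction or had an unadjusted limma p under 0.05. Among the 6, both metastatic lines lay above in 3 and below in none, against 28.3% and 26.9% of all genes tested; Mrc2 and Cspg4, too low to test, also lay above. The median log2 fold change was 0.27. Itga1, the integrin alpha 1 chain, which binds type IV collagen, stood at 4.70 FPKM in 238N1 and 4.26 FPKM in 482N1, against 2.62 FPKM in 368T1 and 2.27 FPKM in 394T4 (log2 fold change 0.67, SE 0.25, adjusted p = 0.344 by limma). Itgb1, its beta 1 partner, stood at 196.8 FPKM in 238N1 and 306.5 FPKM in 482N1, against 162.7 FPKM in 368T1 and 207.9 FPKM in 394T4. Ddr1, the receptor tyrosine kinase for collagens of epithelial cells, stood at 46.1 FPKM in 238N1 and 60.3 FPKM in 482N1, against 39.5 FPKM in 368T1 and 42.5 FPKM in 394T4. Ddr2, the fibroblast counterpart, did not exceed 0.163 FPKM in any line. Mrc2, a receptor that takes up collagen, stood at 0.0274 FPKM in 238N1 and 2.22 FPKM in 482N1 and was listed at 0 in 368T1 and 394T4.

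**Figure D5:**
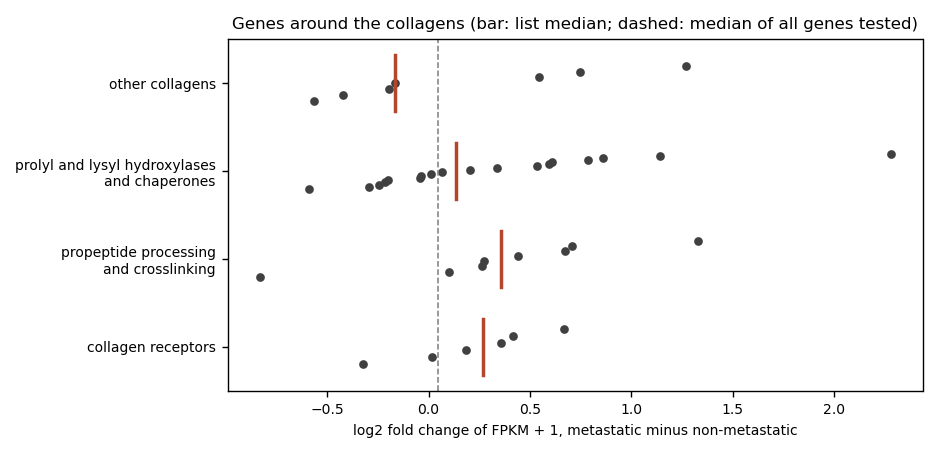
Points give limma's log2 fold change of FPKM + 1 (horizontal axis, metastatic minus non-metastatic) for the tested genes of each list (rows), a red bar its median and the dashed line the median of all genes tested, 0.05. The list medians are -0.16 for other collagens, 0.13 for hydroxylases and chaperones, 0.36 for processing and crosslinking and 0.27 for receptors, and no gene shown passed the test.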

How the data were processed

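The authors deposited FPKM values per gene in 1 table with 1 column per line, per the file headers. Paired reads of 100 bp were aligned to mm9, per the series design text, with TopHat (no version), per the submitters' processing notes. How alignments became gene values is not given in the sources at hand. One allele of the labelled genotype is not reported here. Of repeated symbols, the most abundant row by mean FPKM was used. Positions and gene types came from GENCODE vM1 on NCBIM37, the assembly of mm9, which held the IDs of 99.0% of rows. Genes with a mean of at least 1 FPKM were tested with limma 3.58.1 (R 4.3.3; a trend in the variance, pseudocount 1, all 4 libraries, no covariate), and the script was checked on simulated data. The labels name no animal or culture, so p-values measure only the spread between these lines. An exact permutation test of 2 against 2 lines cannot go below p = 0.333, so none was run. Lines of 1 group were compared by a fixed 4-fold on FPKM + 1. The collagens, the lists and the tests were chosen with earlier results of these data known. All 10 collagens are named; of the surrounding genes, those with the largest fold changes and, chosen after their values were seen, others with a described role.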

Additional observations from a re-analysis of the deposited data

How the results depend on the processing

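The limits are 1 library a line, unknown read totals, and exact zeros that may be failed estimates. Fits without 1 library set a lone line against a pair and assume that it varies like the other group. Of the 8 collagens tested, Col5a1 and Col5a2 kept their direction and stayed short of the threshold in every alternative that could be run. Col4a2 also stayed short of the threshold, but its log2 fold change was only -0.01 after scaling to the library sum. With 1 library left out, the log2 fold change of Col1a1 ranged from -0.46 (without 482N1) to 3.37 (without 238N1), while Col3a1 was at 0 in every library left once 482N1 was removed. The most abundant row took 18.8% of the library sum in 238N1 and 62.5% in 368T1. Scaling to the library sum moved the median log2 fold change of all genes to 0.61, against 0.05 as deposited. It turned Col4a1 to 0.20 and brought Col6a1 (adjusted p = 7.57e-10 by limma) and Col6a2 (log2 fold change 2.87) past the threshold, with 288 genes higher and 97 lower. Scaling to the protein-coding sum moved that median to 0.24, with 1500 genes higher and 468 lower at an unadjusted p under 0.05. These scalings and quantile normalization each left 0 collagens with both metastatic lines below, and each had 4 with both above. Over all genes, as deposited, 14 were higher and 6 lower; no filter gave 1 higher and 1 lower, a mean of at least 5 FPKM gave 7 and 3, limma without the trend 31 and 13, robust limma 15 lower, and leaving out genes listed at 0 gave 0 higher (989 at an unadjusted p under 0.05). With any 1 library left out, limma called 0 genes higher and 0 lower, while 310 to 1249 were higher and 264 to 1277 lower at an unadjusted p under 0.05, against 708 and 1079 with all 4 libraries. The collagens over 4-fold higher in 482N1 than in 238N1 were 2 at a mean of at least 5 FPKM or without genes listed at 0, settings that drop Col1a1 and Col3a1 or Col3a1 and Col6a1 from the genes tested. The cause of the other changes was not tested. No paired analysis was possible because the labels give the lines no shared replicate numbers.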
